A study of Mus musculus with 24 samples.

Results

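The genes described here encode cell-surface receptors of the G protein-coupled family. Most signal through G proteins, but Ackr3 and Ackr4 are atypical chemokine receptors. The genes come from a list of 43 symbols that covers receptors for amines, adenosine, peptides, proteases, lysophospholipids, nucleotides, chemokines and calcium, with a pair of orphan receptors. The list was matched by symbol to the annotation of the array, and 33 of the 43 genes had a transcript cluster (the set of probes that measures 1 transcript) assigned to them alone. The other 10, Adora1, Adora2a, Adora2b, Adra1a, Adra1d, Adra2a, Adrb1, Ednra, F2rl1 and Lpar6, are not analysed here. Of the 33 genes, 29 reached the median signal of their array on at least 3 of the 24 arrays and were tested, among 14892 genes tested in all. Htr2b, Mc2r, Ccr1 and Casr lay below the median of every array and were not tested.

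The cells were primary calvarial osteoblasts, the bone-forming cells of the skull vault, grown from C57BL/6J pups that were 7 to 10 days old. One set of pups was wild type (WT) and the other was a β-Arrestin 2 knockout (KO) on that background. All cells, of both genotypes, were at passage 2 and received 5 mM β-glycerophosphate with 50 mg/L ascorbic acid from day 3, so that the day 2 cultures had been given neither supplement while those of days 5, 10 and 28 had. Each of the 8 groups of genotype and day had 3 arrays (Affymetrix Mouse Gene 2.0 ST, 100 ng of RNA), and the labels describe the replicates as separate biological preparations. Values are log2 expression values as deposited, so a difference of 1 is a 2-fold difference, and levels of different genes cannot be compared because each gene has its own probes.

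G protein-coupled receptors pass signals from outside the cell to heterotrimeric G proteins, which act on enzymes such as adenylyl cyclase and phospholipase C. Active receptors are phosphorylated and then bound by β-arrestins, which end the G protein signal and draw many receptors into the cell. In bone, such receptors carry signals that guide precursor migration, osteoblast growth and the exchange with bone-resorbing cells, and the pathways of sphingosine 1-phosphate, endothelin and nucleotides are among those studied in osteoblasts.

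The genotype labels could not be borne out by the targeted gene. Arrb2, which encodes β-arrestin 2, ranged from 6.44 to 7.42 on the 12 arrays labelled KO and from 5.00 to 6.81 on the 12 labelled WT, and was higher in the arrays labelled KO by 1.00 on average over days (SE 0.09, limma adjusted p 6.44e-06). Where its probes lie relative to the deleted sequence is not given in the sources used here, so groups are called by their labels throughout. Col1a1, the main collagen of osteoblasts, lay between 12.96 and 13.84 on all arrays. Bglap, which encodes osteocalcin of mature osteoblasts, stayed between 3.74 and 4.79 until day 10 and reached 4.76 to 7.25 on day 28. Of 9 tested osteoblast markers, 3 were called higher and 1 lower on day 28 in WT, and 6 higher and 0 lower in KO. All 10 macrophage markers and all 10 adipocyte markers rose by day 28 in both genotypes, and 7 of 10 markers of smooth muscle cells and pericytes fell in both. In both genotypes 4 of 5 tested osteoclast markers also rose, as did 1 of 3 Schwann and neural markers, while 2 of 6 cartilage markers rose and 2 fell. The osteoclast list has 8 genes. Calcr, Oscar and Dcstamp were not tested, being below the array median on 24, 23 and 23 of the 24 arrays. Of all genes tested, 38.8% in WT and 38% in KO were called on day 28 in either direction. The mean of the macrophage markers went from 4.82 to 5.70 on day 2 arrays to 7.45 to 10.92 on day 28 arrays, and that of the adipocyte markers from 4.58 to 5.03 to 8.11 to 9.73. Of 10 endothelial markers 5 were tested. Pecam1, an adhesion protein of endothelium, was at 4.14 to 4.94 on all arrays, near the array medians of 4.55 to 4.72. The endothelial marker Tek rose by 2.54 in WT and 1.52 in KO by day 28 (limma adjusted p 0.000481 and 0.0211). In WT 1 of the 5 was called lower on day 28, with a lowest change of -0.56. The median change of the 5 was -0.03 in WT and 0.09 in KO. Means of the mast cell, lymphocyte and neutrophil markers stayed between 2.88 and 4.29 on every array. Xist, which is transcribed from the inactive X chromosome of female cells, was at 3.56 to 4.31 on the WT replicate 2 arrays and at 7.72 or above on the others; Agtr2 and Lpar4 are X-linked. In these bulk cultures, more cells of a type and more RNA per cell cannot be told apart.

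The 3 promoters printed here belong to receptors whose change from day 2 was called on days 10 and 28 in both genotypes whichever array was left out. Ackr4, Cxcr4, Gprc5a, Lpar1, S1pr1 and S1pr3 met that condition, and of these Ackr4, Cxcr4 and S1pr3 have 1 promoter entry each in the RefSeq table used. Each line gives the 250 bases before the transcription start, 5′ to 3′ on the strand of the gene, from RefSeq on GRCm38.p6, with motif matches in capitals.
S1pr3, chr13:51408368-51408617, plus strand: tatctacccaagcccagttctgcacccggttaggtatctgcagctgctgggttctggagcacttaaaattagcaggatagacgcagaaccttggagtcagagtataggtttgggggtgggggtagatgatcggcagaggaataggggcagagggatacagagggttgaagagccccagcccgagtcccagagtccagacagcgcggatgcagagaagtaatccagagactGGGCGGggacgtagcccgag
Ackr4, chr9:104126644-104126893, minus strand: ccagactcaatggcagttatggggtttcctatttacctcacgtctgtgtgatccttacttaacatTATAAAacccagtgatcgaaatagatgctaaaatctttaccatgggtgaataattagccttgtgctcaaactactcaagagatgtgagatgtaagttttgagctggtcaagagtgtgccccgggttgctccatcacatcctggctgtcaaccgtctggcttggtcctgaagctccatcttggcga
Cxcr4, chr1:128592300-128592549, minus strand: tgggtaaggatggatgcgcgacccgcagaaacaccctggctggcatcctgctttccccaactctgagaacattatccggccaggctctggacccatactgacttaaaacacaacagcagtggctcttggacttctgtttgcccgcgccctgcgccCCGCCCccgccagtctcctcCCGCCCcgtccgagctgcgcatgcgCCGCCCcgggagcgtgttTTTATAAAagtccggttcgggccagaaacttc
In Cxcr4, which fell, 3 GC boxes begin 95, 75 and 50 bases before the start and overlapping TATA matches of the 2 strands begin 32 and 30 bases before it. In S1pr3, which rose, a GC box begins 20 bases before the start, and in Ackr4, which also rose, the only match is a TATA sequence 185 bases before the start.

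Over the list, 26 of the 33 genes had a promoter entry, 33 entries in all, and 9 motifs were searched on both strands in the same 250 bases of 32851 promoters. A GC box (GGGCGG) was in 48.5% of the receptor promoters and 32.7% of all, a TATA sequence (TATAAA) in 18.2% and 12.4%, and an AP-1 sequence (TGANTCA) in 18.2% and 6.75%. All these shares count entries, and some genes have several. The AP-1 sequence was in 6 entries of 5 genes, Adra1b, F2r, Htr2b, Npy1r and P2ry14, and the GC box in 16 entries of 14 genes. A Runx sequence (TGTGGT) was in 15.2% of the receptor promoters against 14% of all, a C/EBP sequence (TTGCNNAA) in 15.2% against 9.56%, an E-box (CACGTG) in 6.06% against 6.02%, and the cAMP response element (TGACGTCA) in 3.03%, that of S1pr2, against 1.55%. The PU.1 (AGGAAGT) and STAT (TTCNNNGAA) sequences were in none of the receptor promoters, against 7.69% and 7.02% of all. These are letter matches and not sites shown to be bound.

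Most of the tested receptor genes differed from day 2 by day 28, more of them upward than downward. In arrays labelled WT, 3 of the 29 were called on day 5 (adjusted p under 0.05, limma, Benjamini-Hochberg over all genes tested), 17 on day 10 and 20 on day 28, against 5.55%, 30.7% and 38.8% of all genes tested. In arrays labelled KO the counts were 2, 9 and 20, against 2.77%, 24.6% and 38% of all genes tested. As shares of the 29, the WT counts are 10.3%, 58.6% and 69%, and the KO counts 6.9%, 31% and 69%. On day 28, 16 were higher and 4 lower in WT, and 15 higher and 5 lower in KO. The median change of the 29 on day 28 was 0.98 in WT and 0.70 in KO, whereas over the 6 comparisons with day 2 the median of all genes tested was at most 0 and at least -0.037. These counts leave out the 4 receptor genes under the filter, and receptors that were dim on day 2 passed it through the later days, so the counts and medians are a description of the 29. Fits that keep the replicate number as a block are given below where they change a call, for the comparisons in which same-numbered cultures deviated together; on WT day 5 the block raised the count from 3 to 5. The heat map of the 33 genes shows the shift from early to late arrays and which genes break from it.

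**Figure D1:**
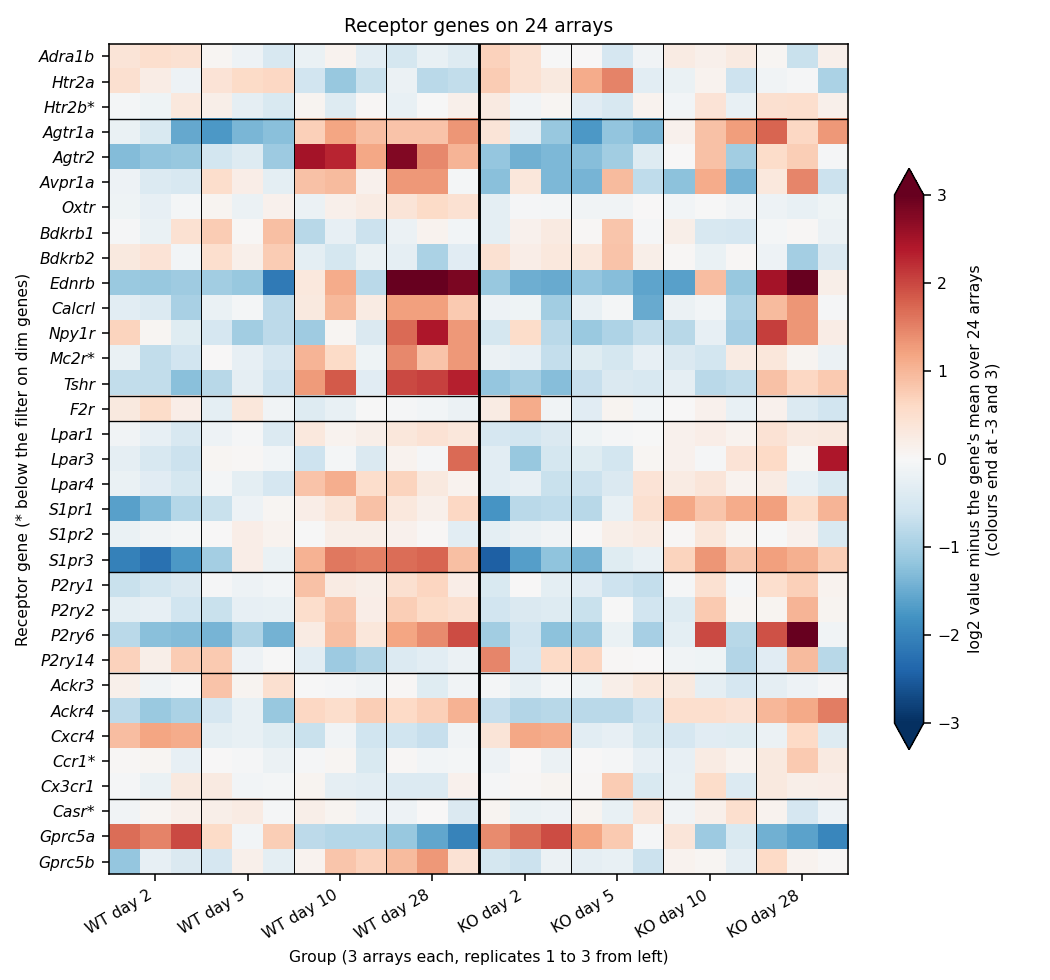
Heat map of the 33 receptor genes (rows, grouped by kind of ligand) on 24 arrays (columns, 3 replicates per group), coloured by the log2 value minus the gene's mean over the 24 arrays, with colours ending at -3 and 3. S1pr3, S1pr1, Agtr1a and Ackr4 are red on nearly all arrays of days 10 and 28 and bluer before, Gprc5a goes from red to blue, and Ednrb is dark red on day 28 except on KO replicate 3, at 5.93.

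S1pr3 and S1pr1, receptors for sphingosine 1-phosphate that guide cell migration, and Lpar1, a receptor for lysophosphatidic acid, were each called higher on days 10 and 28 in both. S1pr3 was at 7.18, 6.98 and 7.48 in WT on day 2, at 8.20, 9.41 and 9.02 on day 5, at 10.25, 10.80 and 10.72 on day 10 and at 10.88, 10.96 and 10.12 on day 28. In KO it was at 6.77, 7.57 and 8.0 on day 2, at 7.78, 8.84 and 8.98 on day 5, at 9.87, 10.52 and 10.02 on day 10 and at 10.44, 10.28 and 9.95 on day 28. All arrays of days 10 and 28 lay above all arrays of days 2 and 5. By day 28 S1pr3 had risen 10.9-fold in WT (log2 3.44, SE 0.35, limma adjusted p 3.54e-07) and 6.87-fold in KO (log2 2.78, SE 0.35, adjusted p 5.86e-06). On day 5 it was called in WT (1.66, adjusted p 0.0075, and 0.0573 without WT day 5 replicate 2) and had an adjusted p of 0.108 in KO, or 0.0288 without KO day 5 replicate 1.

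S1pr1 was at 6.80, 7.09 and 7.57 in WT on day 2 and at 8.74, 8.57 and 9.05 on day 28. In KO it went from 6.65, 7.61 and 7.66 to 9.65, 8.98 and 9.43. The groups did not overlap in either genotype, and the rise was 1.63 in WT (SE 0.31, adjusted p 0.00035) and 2.05 in KO (SE 0.31, adjusted p 4.24e-05). On day 5 S1pr1 was 1.01 above day 2 in WT (adjusted p 0.0648, and 0.0179 with the replicate block) and 0.92 above in KO (adjusted p 0.134, 0.0445 with the block, and 0.0407 without KO day 5 replicate 1). S1pr2, another receptor of this ligand, lay between 8.01 and 8.81 on all 24 arrays and was called in none of the comparisons against day 2 (changes from 0.07 to 0.34).

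Lpar1 changed less in size than S1pr1 and S1pr3 but with little scatter. In WT its values were 6.78, 6.63 and 6.41 on day 2 and 7.22, 7.31 and 7.22 on day 28, and in KO 6.38, 6.34 and 6.44 and then 7.31, 7.15 and 7.17. The day 28 arrays were above the day 2 arrays throughout, with a change of 0.65 in WT (SE 0.11, adjusted p 0.000151) and 0.82 in KO (SE 0.11, adjusted p 1.48e-05). On day 5 Lpar1 was called in KO only as long as all 6 arrays were kept (0.44, adjusted p 0.0405, up to 0.152 with any 1 left out). Lpar4, another receptor for lysophosphatidic acid, peaked on day 10 in WT. Its WT values were 8.24, 8.09 and 7.92 on day 2, 9.29, 9.52 and 8.96 on day 10 and 9.11, 8.73 and 8.54 on day 28. In WT it was called on day 10 (1.17, adjusted p 0.000766) and on day 28 (0.71, adjusted p 0.0217), the latter lost without WT day 2 replicate 2 or 3 or WT day 28 replicate 1 (up to 0.113). In KO it was at 8.11, 8.18 and 7.78 on day 2 and at 8.69, 8.80 and 8.54 on day 10, a change of 0.65 (adjusted p 0.0488) whose call was lost without any 1 of the 6 arrays (up to 0.185); on day 28 its change was 0.27 (adjusted p 0.397).

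Lpar3, also a receptor for lysophosphatidic acid, was below the array median on all arrays of day 2 in both genotypes. It was below it on 20 of the 24 arrays, so it passed the filter through few arrays. Late arrays on which its call rests are among those, so the call is not independent of the filter. On day 28 it was at 4.40, 4.25 and 6.00 in WT and at 4.89, 4.36 and 6.72 in KO, so that replicate 3 stood far above the others in each. It was called on day 28 in KO (1.68, SE 0.45, adjusted p 0.00531), where the change was 0.99 without KO day 28 replicate 3 (adjusted p 0.0437). In WT the change was 1.05 (adjusted p 0.0678, or 0.0338 without WT day 28 replicate 2). The block called this WT change, in a comparison that did not meet the pairing rule given below. The mean of 9 osteoblast markers was highest in those replicate 3 arrays of day 28, at 9.75 in WT and 10.30 in KO, against 7.48 to 8.67 and 8.09 to 9.66 in the others of that day. The cartilage marker mean was highest there too, at 7.92 in WT and 8.15 in KO. In WT alone so were the macrophage and osteoclast means, at 9.47 and 6.49. The part of any of these cell types in the Lpar3 values was not tested.

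**Figure D2:**
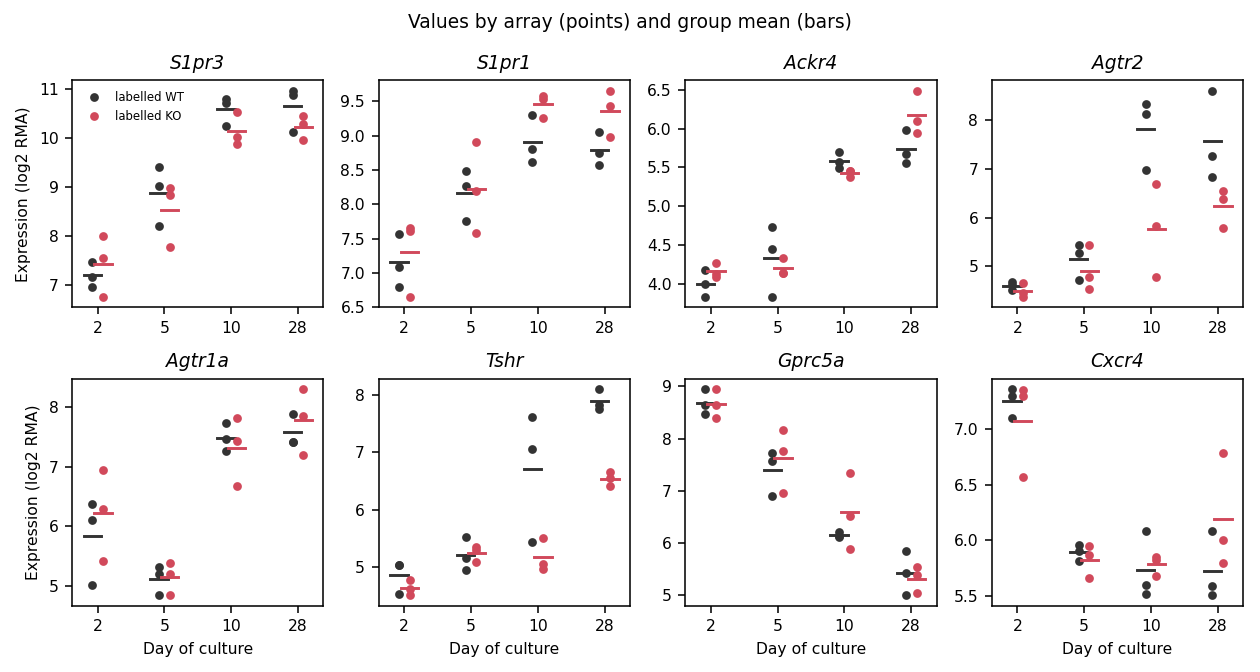
Log2 values of 8 receptor genes by day of culture, with a point for each of the 3 arrays of a group and a bar at the group mean, for arrays labelled WT and KO. S1pr3, S1pr1, Ackr4 and Agtr1a lie higher on days 10 and 28 than on day 5 in both genotypes, Agtr2 and Tshr reach higher values in WT, and Gprc5a and Cxcr4 are lower after day 2.

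Of the angiotensin II receptors, Agtr1a rose between days 5 and 10 in both genotypes and Agtr2 in WT. Agtr1a, the receptor that carries most of the pressor action of the hormone, was at 6.37, 6.11 and 5.02 in WT on day 2, at 4.84, 5.19 and 5.31 on day 5, at 7.27, 7.74 and 7.47 on day 10 and at 7.42, 7.43 and 7.89 on day 28. The KO arrays were at 6.95, 6.29 and 5.41, at 4.84, 5.38 and 5.20, at 6.68, 7.44 and 7.82 and at 8.31, 7.19 and 7.85 on the same days. Day 5 thus held low values in both genotypes, and all arrays of days 10 and 28 lay above those of day 5. From day 5 to day 10 Agtr1a rose 5.20-fold in WT (2.38, adjusted p 0.00038) and 4.51-fold in KO (2.17, adjusted p 0.00269). Against day 2 it was higher on day 28 by 1.75 in WT (SE 0.38, adjusted p 0.000999) and by 1.56 in KO (SE 0.38, adjusted p 0.00255). The KO call of day 10 against day 2 (1.10, adjusted p 0.0382) was lost with the replicate block (0.0512) and without KO day 2 replicate 2 or 3 or KO day 10 replicate 2 or 3 (up to 0.229, with a change of 0.69 without KO day 2 replicate 3).

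Agtr2, the second angiotensin II receptor, which often opposes the first, started near the array median. WT arrays were at 4.52, 4.63 and 4.68 on day 2, at 8.32, 8.11 and 6.98 on day 10 and at 8.60, 7.25 and 6.83 on day 28. KO values were 4.66, 4.37 and 4.46 on day 2, at 5.82, 6.69 and 4.78 on day 10 and at 6.37, 6.54 and 5.78 on day 28. All WT arrays of days 10 and 28 lay above all KO arrays of those days. By day 28 it had risen 7.73-fold in WT (2.95, SE 0.44, adjusted p 2.81e-05) and 3.32-fold in KO (1.73, SE 0.44, adjusted p 0.00403). On day 10 the WT rise was 9.15-fold (3.19, adjusted p 2.15e-05), and the KO rise of 1.27 (adjusted p 0.0415) was not called when any KO day 2 array or KO day 10 replicate 1 or 2 was left out (up to 0.234, with a change of 0.80 without KO day 10 replicate 2).

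Ednrb, a receptor for endothelins, had the highest change of the list, and every day 28 array but 1 lay above all earlier arrays. WT values were 4.63, 4.61 and 4.69 on day 2, 6.07, 6.85 and 4.93 on day 10 and 8.73, 8.92 and 8.57 on day 28. KO arrays were at 4.61, 4.28 and 4.23 on day 2, at 4.11, 6.67 and 4.60 on day 10 and at 8.24, 11.10 and 5.93 on day 28. The KO arrays thus spread over more than 5 log2 units on day 28 while the WT arrays lay close together. The rise by day 28 was 17.1-fold in WT (4.10, SE 0.82, adjusted p 0.000527) and 16.6-fold in KO (4.05, SE 0.82, adjusted p 0.000606). The KO rise was 6.56-fold without KO day 28 replicate 2 (2.71, adjusted p 0.00267) and 39.3-fold without KO day 28 replicate 3 (5.30, adjusted p 1.43e-05). The macrophage marker mean on those KO arrays was 9.18, 10.92 and 7.45, in the same order as Ednrb, and on KO day 10 arrays it was 6.27, 9.34 and 5.69, where Ednrb was also highest in replicate 2. The order was not particular to that list. On the KO day 28 arrays the adipocyte mean (8.18, 8.51 and 8.11) and the endothelial mean (4.66, 4.83 and 4.63) had it too. Both were also highest in replicate 2 on KO day 10, at 6.73 and 4.67. In WT on day 28 the macrophage mean was 8.50, 8.86 and 9.47, and Ednrb was lowest where it was highest. On that array the adipocyte mean was also highest, at 9.73, and the endothelial mean lowest, at 4.34.

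P2ry6, a receptor for UDP that is well known from phagocytes, followed the same replicates. In WT its values were 5.41, 4.98 and 4.92 on day 2 and 7.40, 7.65 and 8.19 on day 28, and in KO 5.18, 5.66 and 4.99 and then 8.12, 9.71 and 6.11. On KO day 10 arrays it was at 5.94, 8.20 and 5.39. Within WT day 28, KO day 10 and KO day 28 the order of the P2ry6 values was that of the macrophage marker mean. Within WT day 10 (6.46, 7.13 and 6.56, beside means of 7.34, 8.08 and 7.01) it was not. The adipocyte and endothelial means had the P2ry6 order within KO day 28 but not within the other groups named here. The rise by day 28 was 6.26-fold in WT (2.65, SE 0.65, adjusted p 0.00296) and 6.52-fold in KO (2.70, SE 0.65, adjusted p 0.00262). Without KO day 28 replicate 2 the KO rise was 3.58-fold (adjusted p 0.0223), and without KO day 28 replicate 3 it was 12.5-fold (adjusted p 8.6e-05). The KO day 10 change of 1.24 (adjusted p 0.18) was called with the block (0.0384). So was the WT change of day 10, in a comparison that did not meet the pairing rule given below. Adgre1, a defining macrophage marker, was 3.73 to 4.07 on WT day 2 arrays and 8.34 to 9.53 on WT day 28 arrays, and the part of macrophage-lineage cells in the Ednrb and P2ry6 values was not tested.

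**Figure D3:**
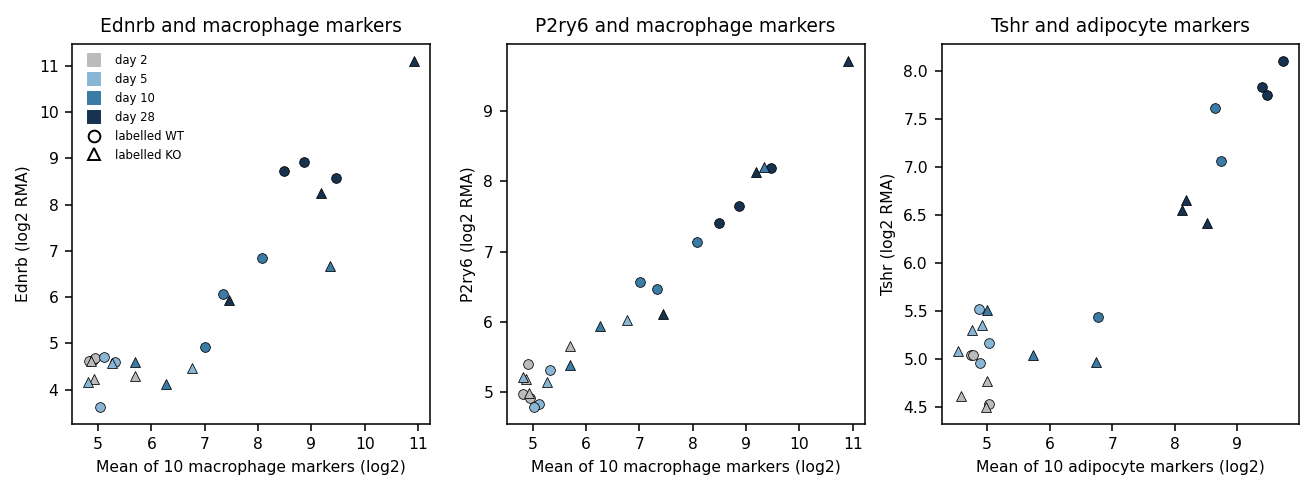
Ednrb and P2ry6 plotted against the mean of 10 macrophage markers, and Tshr against the mean of 10 adipocyte markers, with 1 point for each of the 24 arrays (log2 on all axes; circles for labelled WT, triangles for labelled KO, darker for later days). The KO day 28 array with a macrophage mean of 10.92 is highest for Ednrb at 11.10 and for P2ry6 at 9.71, and the 3 arrays highest for the adipocyte mean are also highest for Tshr.

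Tshr, the thyrotropin receptor, rose by day 28 in both genotypes, as the adipocyte markers did. It was at 5.04, 5.04 and 4.53 in WT on day 2, at 7.06, 7.62 and 5.44 on day 10 and at 7.76, 7.83 and 8.11 on day 28. KO values were lower late, at 4.62, 4.77 and 4.50 on day 2, at 5.51, 4.96 and 5.05 on day 10 and at 6.65, 6.41 and 6.56 on day 28. The 3 WT arrays of day 28 lay above every KO array, whereas WT day 10 replicate 3 lay with the KO arrays of its day. The rise by day 28 was 8.17-fold in WT (3.03, SE 0.34, adjusted p 1.03e-06) and 3.76-fold in KO (1.91, SE 0.34, adjusted p 0.000178). On day 10 it was called in WT (1.84, adjusted p 0.00036) and had an adjusted p of 0.262 in KO (0.55). The adipocyte marker mean was 8.74, 8.65 and 6.77 on the WT day 10 arrays and 5.00, 6.73 and 5.74 on the KO day 10 arrays, and on day 28 it was 9.39 to 9.73 in WT and 8.11 to 8.51 in KO. Within KO day 10 the array with the highest adipocyte mean had the lowest Tshr value and the array with the lowest mean the highest; the part of adipocytes in the Tshr values was not tested.

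Mc2r, the receptor for corticotropin, was under the filter on dim genes, so its values carry no test in the fit reported here. Its WT values were 2.85, 2.30 and 2.47 on day 2 and 4.48, 3.90 and 4.36 on day 28, all below the array medians. With the filter removed it was called in WT on day 10 (1.00, adjusted p 0.0077) and on day 28 (1.71, adjusted p 3.8e-05), and had an adjusted p of 0.226 in KO on day 28 (0.46). Mrap, the accessory protein that brings this receptor to the cell surface, was at 6.15, 5.34 and 6.17 in WT on day 2 and at 9.26, 9.34 and 8.71 on day 28. It rose by 3.22 in WT by day 28 (adjusted p 7.58e-06) and by 1.35 in KO (adjusted p 0.0166, up to 0.0734 without KO day 2 replicate 1 or KO day 28 replicate 2).

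Calcrl, which binds calcitonin gene-related peptide or adrenomedullin together with a receptor activity-modifying protein, was at 6.56, 6.46 and 5.91 in WT on day 2 and at 8.12, 8.11 and 7.65 on day 28. The KO values were 6.73, 6.76 and 5.82 and then 7.83, 8.21 and 6.84. Neither pair of groups overlapped, and replicate 3 was the lowest of each. The rise was 1.65 in WT (SE 0.39, adjusted p 0.00196) and 1.19 in KO (SE 0.39, adjusted p 0.0193), the KO call lost without KO day 2 replicate 3 or KO day 28 replicate 1 or 2 (up to 0.119). The WT call of day 10 (1.07, adjusted p 0.0402) was lost without any WT day 2 array or WT day 10 replicate 1 or 2 (up to 0.166). Ramp2, the partner with which Calcrl forms an adrenomedullin receptor, rose by 1.16 in WT and by 1.00 in KO (adjusted p 0.000219 and 0.000902), and was chosen after its values were seen.

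Npy1r, a receptor for neuropeptide Y, was highest at the end of the culture. In WT it was at 5.96, 5.35 and 4.94 on day 2, at 4.22, 5.34 and 4.87 on day 10 and at 6.98, 7.71 and 6.60 on day 28. For KO the values were 4.78, 5.83 and 4.48, then 4.47, 5.04 and 4.30, and 7.37, 6.61 and 5.52. Every day 28 array lay above every day 10 array in both genotypes. From day 10 to day 28 it rose 4.88-fold in WT (2.29, adjusted p 0.00608) and 3.73-fold in KO (1.90, adjusted p 0.0231, lost without KO day 10 replicate 1 or 3 or KO day 28 replicate 1 or 2, up to 0.119). Against day 2 the rise was 1.69 in WT (adjusted p 0.00308) and 1.47 in KO (adjusted p 0.00837, up to 0.0675 without KO day 2 replicate 3 or KO day 28 replicate 1).

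Avpr1a, the vasopressin receptor that couples to phospholipase C, was at 6.75, 6.49 and 6.42 in WT on day 2 and at 8.20, 8.21 and 6.85 on day 28, and in KO at 5.66, 7.25 and 5.55 and then at 7.23, 8.38 and 6.27. KO replicate 2 was the highest KO array on each of the 4 days, at 7.25, 7.85, 8.03 and 8.38. Its change by day 28 was 1.20 in WT (adjusted p 0.163) and 1.14 in KO (adjusted p 0.189), and with the replicate block the KO change was called (adjusted p 0.00165). Oxtr, the oxytocin receptor, is described with the comparison of the genotypes.

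Bdkrb2, the constitutive bradykinin receptor, fell by day 28 in both genotypes. It was at 5.30, 5.43 and 4.94 in WT on day 2 and at 4.74, 4.07 and 4.69 on day 28, and in KO at 5.48, 5.21 and 5.33 and then at 4.86, 4.0 and 4.58. The fall was -0.72 in WT (adjusted p 0.0159, up to 0.107 without WT day 2 or day 28 replicate 2) and -0.86 in KO (adjusted p 0.00537). Bdkrb1, the inducible receptor for kinins encoded next to Bdkrb2, was called in none of the comparisons against day 2. It fell from day 5 to day 10 in WT, from 6.23, 5.49 and 6.37 to 4.63, 5.23 and 4.82 (-1.14, adjusted p 0.00778, and 0.0545 without WT day 5 replicate 3). In KO that change was -0.55 (adjusted p 0.244).

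Among nucleotide receptors, P2ry1 and P2ry2 rose as P2ry6 did but by less. P2ry1, a receptor for ADP, was below the array median on all day 2 arrays. It went from 3.82, 3.93 and 4.05 on day 2 to 4.96, 5.12 and 4.68 on day 28 in WT and from 4.02, 4.50 and 4.19 to 5.00, 5.21 and 4.60 in KO, without overlap. The change was 0.99 in WT (adjusted p 0.000503) and 0.70 in KO (adjusted p 0.00791). On day 10 P2ry1 was called in WT (0.98, adjusted p 0.000729) and had an adjusted p of 0.173 in KO (0.38).

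P2ry2, a receptor for ATP and UTP encoded next to P2ry6, was at 5.87, 5.92 and 5.57 in WT on day 2 and at 6.91, 6.75 and 6.65 on day 28. KO arrays stood at 5.59, 5.73 and 5.78 and then at 6.24, 7.20 and 6.25, highest in the replicate with the highest macrophage mean. The adipocyte and endothelial means were highest on that KO day 28 array too. On the WT day 28 arrays the macrophage mean was 8.50, 8.86 and 9.47, and P2ry2 was lowest where it was highest. The rise was 0.98 in WT (adjusted p 0.00642) and 0.86 in KO (adjusted p 0.0155, but 0.54 and 0.119 without KO day 28 replicate 2). On day 10 the WT change was 0.90 (adjusted p 0.0145, up to 0.0729 without WT day 2 replicate 3 or WT day 10 replicate 2), and the KO change of 0.62 (adjusted p 0.101) was called with the block (0.0203) or without KO day 10 replicate 1 (0.0291). P2ry14, a receptor for UDP-sugars, went the other way. In WT it was at 5.56, 5.05 and 5.63 on day 2 and at 4.56, 3.78 and 3.97 on day 10, a fall of -1.31 (adjusted p 0.0253, up to 0.0926 without WT day 2 replicate 1 or 3 or WT day 10 replicate 2 or 3). In KO its changes of -0.88 on day 10 and -0.59 on day 28 (adjusted p 0.143 and 0.303) became -1.39 and -1.10 without KO day 2 replicate 2 (adjusted p 0.0241 and 0.048).

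Among the chemokine receptors, Cxcr4 fell, Ackr4 rose and Ackr3 and Cx3cr1 were called in none of the comparisons against day 2. Cxcr4, which signals in response to CXCL12 and holds marrow cells near stromal cells, fell before day 5 and stayed low. In WT it was at 7.10, 7.36 and 7.30 on day 2, at 5.90, 5.95 and 5.81 on day 5, at 5.51, 6.08 and 5.59 on day 10 and at 5.59, 5.50 and 6.08 on day 28. KO arrays were at 6.57, 7.35 and 7.30, at 5.87, 5.95 and 5.66, at 5.67, 5.85 and 5.82 and at 6.00, 6.79 and 5.79. Only KO day 28 replicate 2, at 6.79, reached into the range of day 2. The change on day 5 was -1.37 in WT (SE 0.23, adjusted p 0.00145) and -1.25 in KO (SE 0.23, adjusted p 0.00577), and on day 28 it was -1.53 (adjusted p 3.15e-05) and -0.88 (adjusted p 0.00505). It was the only receptor gene called on day 5 in both genotypes.

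Ackr3, an atypical receptor for the same chemokine that binds β-arrestin without G protein signalling, lay between 5.61 and 6.98 on all arrays and was called in none of the comparisons against day 2 (changes from -0.15 to 0.47). Ackr4, an atypical receptor that removes CCL19, CCL21 and CCL25, rose with little scatter. Its values were 4.18, 3.83 and 3.99 in WT on day 2, 5.57, 5.49 and 5.69 on day 10 and 5.56, 5.67 and 5.99 on day 28. In KO they were 4.27, 4.09 and 4.13, then 5.45, 5.45 and 5.38, and 5.95, 6.09 and 6.49. Day 2 and day 10 arrays were separated by more than 1 log2 unit in both genotypes. The rise by day 28 was 3.34-fold in WT (1.74, SE 0.18, adjusted p 4.8e-07) and 4.05-fold in KO (2.02, SE 0.18, adjusted p 1.65e-07). Cx3cr1, the fractalkine receptor of many macrophages, was between 5.08 and 6.29 on all arrays and was called in no comparison, with changes by day 28 of -0.26 in WT and 0.19 in KO. Ccr1 was under the filter, with its highest value of 4.02 on KO day 28 replicate 2; with the filter removed it was called in KO on day 28 (0.56, adjusted p 0.0139).

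Of the amine receptors, Adra1b fell by day 28 in both genotypes, and Htr2a was called lower on day 10 in WT. Adra1b, an α1 adrenergic receptor, was at 5.84, 5.96 and 5.90 in WT on day 2 and at 4.92, 5.21 and 5.05 on day 28, without overlap. In KO it was at 6.13, 5.90 and 5.44 and then at 5.50, 4.78 and 5.60. The change was -0.84 in WT (adjusted p 0.00287) and -0.53 in KO (adjusted p 0.0469), where without KO day 28 replicate 2 it was -0.28 (adjusted p 0.302) and where KO day 2 replicates 1 and 2 were also needed for the call. In WT it was lower by -0.65 on day 5 (adjusted p 0.0746, 0.0368 with the block) and by -0.59 on day 10 (adjusted p 0.0332, lost without any array but WT day 10 replicate 2, up to 0.113).

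Htr2a, a serotonin receptor coupled to phospholipase C, dropped between days 5 and 10 in WT, from 7.25, 7.40 and 7.46 to 6.25, 5.68 and 6.16. That change was -1.34 (adjusted p 0.016, up to 0.0805 without WT day 5 replicate 3 or WT day 10 replicate 2). In KO the values of those days were 7.94, 8.31 and 6.51 and then 6.63, 6.93 and 6.21, a change of -0.99 (adjusted p 0.102, 0.0167 with the block, and 0.00252 without KO day 5 replicate 3). Against day 2, Htr2a was called on day 10 in WT (-0.98, adjusted p 0.0359, up to 0.138 without WT day 2 replicate 1 or 2 or WT day 10 replicate 2 or 3), and its WT change on day 28 was -0.76 (adjusted p 0.087). The KO changes of -0.74 on day 10 and -0.86 on day 28 (adjusted p 0.127 and 0.0535) were called with the block (0.0256 and 0.00675). The block also called the WT change of day 28, in a comparison that did not meet the pairing rule given below. Htr2b was under the filter, between 3.49 and 4.49.

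F2r, the thrombin receptor, ranged from 10.14 to 11.82 on the 24 arrays. It was at 10.95, 11.82 and 10.60 in KO on day 2 and at 10.83, 10.30 and 10.14 on day 28, so that the groups overlapped. The KO change of -0.70 (adjusted p 0.0269) was -0.35 without KO day 2 replicate 2 (adjusted p 0.224) and was also lost without KO day 28 replicate 2 or 3. In WT the change was -0.45 (adjusted p 0.151). Casr, the calcium-sensing receptor, was under the filter, between 3.52 and 4.52.

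The 2 orphan receptors of the list went in opposite directions. Gprc5a, a retinoic acid-inducible orphan, fell by day 28 in both genotypes, from 8.65, 8.47 and 8.95 in WT on day 2 to 7.56, 6.89 and 7.72 on day 5, to 6.20, 6.12 and 6.12 on day 10 and to 5.84, 5.42 and 4.98 on day 28. In KO it was at 8.40, 8.65 and 8.94, at 8.16, 7.76 and 6.95, at 7.34, 5.89 and 6.52 and at 5.53, 5.37 and 5.02. No array of a later day reached the range of day 2. The fall by day 28 was 9.67-fold in WT (-3.27, SE 0.33, adjusted p 2.57e-07) and 10.2-fold in KO (-3.36, SE 0.33, adjusted p 3.21e-07). On day 5 it was called in WT (-1.30, adjusted p 0.0218, up to 0.125 without WT day 2 replicate 1 or 3 or WT day 5 replicate 1 or 2), and in KO the adjusted p was 0.0978 (-1.04), or 0.0475 without KO day 5 replicate 1.

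Gprc5b, its relative, rose. It was at 6.60, 7.53 and 7.32 in WT on day 2 and at 8.70, 9.06 and 8.21 on day 28, and in KO at 7.23, 7.13 and 7.59 and then at 8.36, 7.88 and 7.81. Both pairs of groups were separate, with a smaller gap in KO. The change was 1.51 in WT (SE 0.26, adjusted p 0.000126) and 0.70 in KO (SE 0.26, adjusted p 0.0393, lost without KO day 2 replicate 1 or 2 or KO day 28 replicate 1 or 2, up to 0.17). On day 10 it was called in WT (1.16, adjusted p 0.00199) and had an adjusted p of 0.263 in KO (0.42).

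Of the genes for ligands of these receptors and for enzymes and proteins that make, carry or remove them, 56 were listed, 48 had a cluster of their own and 40 were tested. On day 28, 13 of the 40 had risen and 6 had fallen in WT, and 15 had risen and 6 had fallen in KO, 47.5% and 52.5% of the list beside the 38.8% and 38% of all genes. Their median change was 0.08 in WT and 0.26 in KO. Cxcl12, the ligand of Cxcr4 and Ackr3, was at 8.75, 8.62 and 9.18 in WT on day 2 and at 12.27, 13.02 and 12.44 on day 28, and in KO at 7.83, 9.29 and 8.84 and then at 12.25, 12.17 and 12.54. It rose by 3.73 in WT (adjusted p 3.43e-08) and by 3.67 in KO (adjusted p 8.37e-08), opposite in direction to Cxcr4. Enpep, the aminopeptidase that trims angiotensin II, rose by 3.42 and 3.11 (adjusted p 4.47e-08 and 2.36e-07). Ccl3, a ligand of Ccr1, rose by 3.74 and 3.53 (adjusted p 0.00195 and 0.00321). Its KO day 28 values of 7.36, 10.49 and 5.51 were in the order of the macrophage, adipocyte and endothelial means. Kng2, a kininogen from which kinins are cut, rose by 3.25 and 2.63 (adjusted p 6.28e-06 and 7.21e-05).

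The following genes of the same list were chosen after their values were seen, to set the angiotensin and endothelin receptors beside their ligands. Agt, the precursor of angiotensin II, rose by 1.94 in WT and 1.59 in KO by day 28 (adjusted p 8.25e-06 and 8.15e-05), and Ace, which completes the hormone, by 2.51 and 2.15 (adjusted p 6e-06 and 4e-05). Agt was at 4.84 to 5.42 on the WT day 2 arrays and at 7.02 to 7.12 on the WT day 28 arrays. Edn1, the precursor of endothelin 1, fell while Ednrb rose. It was at 6.93, 7.57 and 7.27 in WT on day 2, at 4.06, 5.27 and 5.76 on day 5 and at 6.00, 5.85 and 6.06 on day 28, and in KO at 7.23, 7.19 and 7.24, at 6.03, 5.74 and 5.06 and at 5.91, 5.55 and 5.53. No later array reached the range of day 2, and the change by day 28 was -1.29 in WT (adjusted p 0.00233) and -1.56 in KO (adjusted p 0.000496). Ece1, the enzyme that cuts the endothelin precursor, fell by day 28 with changes of -0.81 and -0.97 (adjusted p 0.00742 and 0.00208).

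**Figure D4:**
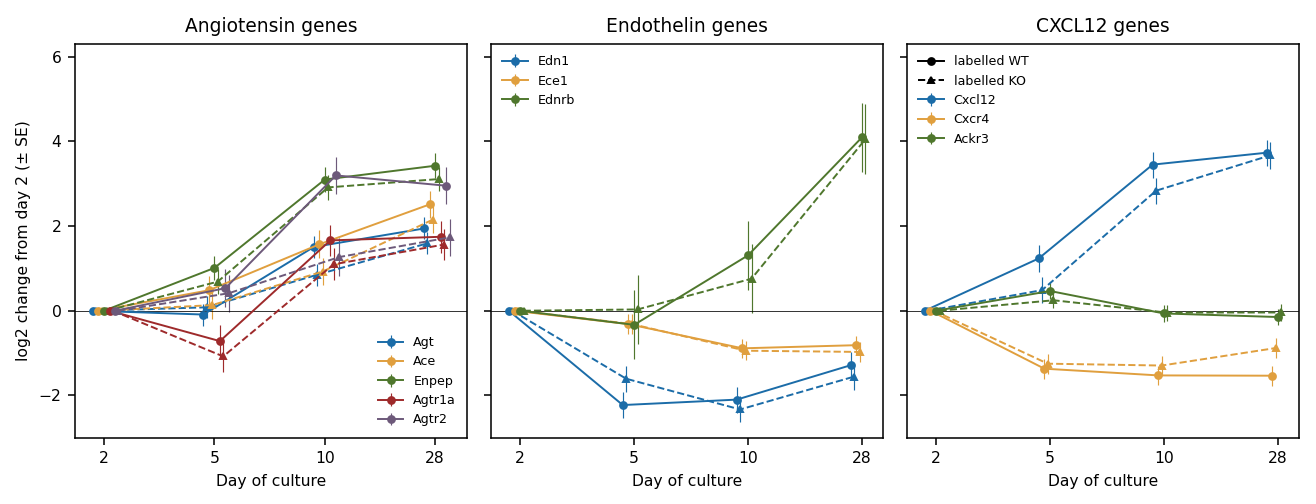
Fitted log2 change from day 2 (± SE) of genes of the angiotensin, endothelin and CXCL12 pathways by day of culture, with solid lines for arrays labelled WT and dashed lines for KO. Agt, Ace, Enpep and both angiotensin receptors end above 1, Ednrb reaches 4.10 and 4.05 while Edn1 and Ece1 stay below 0, and Cxcl12 rises to 3.73 and 3.67 while Cxcr4 falls and Ackr3 stays near 0.

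Of 52 genes for G protein subunits and the enzymes and channels they act on, 49 had a cluster of their own and 46 were tested. On day 28, 11 of the 46 had risen and 8 had fallen in WT, and 12 had risen and 5 had fallen in KO, 41.3% and 37% of the list, beside 38.8% and 38% of all genes, with median changes of 0.10 and 0.14. Gng8, a G protein γ subunit, rose by 1.40 in WT and 1.64 in KO (adjusted p 0.00452 and 0.00133), and Gnao1, an α subunit of the inhibitory class, by 1.28 and 1.39 (adjusted p 0.0023 and 0.00121). Prkar2a, a regulatory subunit of protein kinase A, fell with changes of -1.29 and -1.15 (adjusted p 0.00122 and 0.00327), while its relative Prkar2b rose in WT by 1.39 (adjusted p 0.000135) and had a change of 0.50 in KO (adjusted p 0.115). Itpr3, a channel that releases calcium downstream of phospholipase C, fell with changes of -1.14 and -0.92 (adjusted p 0.000571 and 0.00334). Arrb1, which encodes the other β-arrestin, rose by 0.80 in WT and 0.99 in KO (adjusted p 0.00894 and 0.0021).

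Comparisons of consecutive days were added after the data had been seen, to place the changes in time. From day 5 to day 10, 12 of the 29 receptor genes were called in WT, 8 higher and 4 lower, against 10.5% of all genes, and 5 in KO, all higher, against 4.76%. The 12 were Agtr1a, Agtr2, Tshr, Lpar1, Lpar4, S1pr3, P2ry2 and Ackr4, which rose, and Htr2a, Bdkrb1, Bdkrb2 and Gprc5a, which fell. The 5 in KO were Agtr1a, S1pr1, S1pr3, P2ry1 and Ackr4. Of these, Ackr4 and Agtr1a kept their call in both genotypes whichever array was left out, and the KO count ran from 2 without KO day 5 replicate 1 or KO day 10 replicate 2 to 7 without KO day 5 replicate 3. In KO, P2ry1 lost its call without any KO day 5 array or KO day 10 replicate 2 or 3 (adjusted p up to 0.225), S1pr1 without KO day 5 replicate 1 or 2 or any KO day 10 array (up to 0.201), and S1pr3 without KO day 5 replicate 1 or KO day 10 replicate 2 (up to 0.11). In WT the count fell to 6 without WT day 5 replicate 3, and calls that single arrays decided were those of Htr2a and Bdkrb1, given above, and of P2ry2 (any array but WT day 10 replicate 3, up to 0.15), Lpar1 (WT day 5 replicate 3, WT day 10 replicate 1 or 3, up to 0.181), Bdkrb2 (WT day 5 replicate 1 or 3, WT day 10 replicate 1 or 2, up to 0.139), Gprc5a (WT day 5 replicate 1 or 3, WT day 10 replicate 2, up to 0.0937) and Tshr (WT day 10 replicate 2, 0.0532). Without KO day 5 replicate 3, Lpar4 and Gprc5a were called in KO as well (adjusted p 0.0315 and 0.0139). With the replicate block Calcrl (0.85, adjusted p 0.00127), P2ry6 (1.73, 0.0123) and Gprc5b (0.77, 0.016) were also called in WT, and Gprc5a (-1.04, 0.0455) in KO.

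From day 10 to day 28, 1 receptor gene was called in WT, Npy1r, against 1.02% of all genes, and 4 in KO, Npy1r, Ednrb, Tshr and Ackr4, against 1.65%. The WT call of Npy1r was kept whichever array was left out (adjusted p up to 0.0477). None of the 4 KO calls was kept in every such fit (adjusted p up to 0.144 for Ackr4 and 0.137 for Tshr), and none at all was left without KO day 10 replicate 1 or 3 or KO day 28 replicate 2. Ednrb rose in this interval by 3.30 in KO (adjusted p 0.0455), or by 1.96 without KO day 28 replicate 2 (adjusted p 0.148). Its change in WT was 2.79 (adjusted p 0.136), which the block called, though this comparison did not meet the pairing rule given below. Tshr rose by 1.37 in KO (adjusted p 0.0448), with a change of 1.19 in WT (adjusted p 0.121, and 0.00978 without WT day 10 replicate 2). With the block Calcrl (1.13, adjusted p 0.000779) and Gprc5a (-1.27, adjusted p 0.0275) were also called in KO.

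The time courses of the genotypes were compared next, since the study set KO against WT at each day. Of the 29 receptor genes, 25 changed in the same direction from day 2 in both genotypes on day 5, 29 on day 10 and 27 on day 28. Directions were not counted over all genes tested, so these counts do not show a trait particular to the receptors. On day 28, 18 (62.1%) were called in both in the same direction, beside 31.1% of all genes tested, with Oxtr and Lpar4 called in WT alone and F2r and Lpar3 in KO alone. On day 10, 9 (31%) were called in both, beside 19.6% of all genes tested, and 8 in WT alone, which were Adra1b, Htr2a, Calcrl, Tshr, P2ry1, P2ry2, P2ry14 and Gprc5b. A call in 1 genotype alone does not show that the change differed. The limma test of the difference called none of the 29 genes on day 5, 10 or 28 or in the F test over the 3 days. In the same order it called 0, 0, 1 and 1 of all 14892 genes tested, so the absence of calls is not particular to the receptors. At an unadjusted p under 0.05 there were 2, 3, 3 and 3 receptor genes, counts given without the share of all genes and as a description only. Over both genotypes and 3 days there were 71 calls of receptor genes, and in 66 of them (93%) the arrays did not overlap with those of day 2, as in 96.3% of the calls over all genes. On day 28 the arrays of 25 of the 29 genes (86.2%) did not overlap with day 2 in WT, beside 52.8% of all genes tested, and those of 18 (62.1%) in KO, beside 47.7%. As calls, the background there was 38.8% and 38%.

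**Figure D5:**
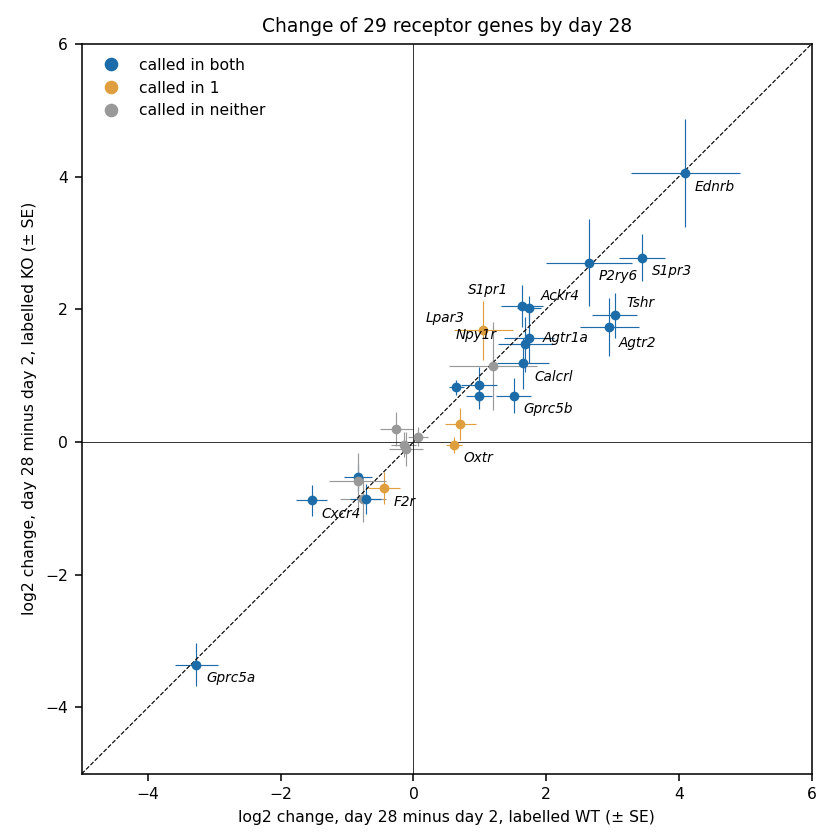
Fitted log2 change from day 2 to day 28 (± SE) of the 29 tested receptor genes in arrays labelled WT (x) and KO (y), coloured by whether the change was called in both genotypes, in 1 or in neither, with the line of equal change dashed. Most genes lie near the line, from Gprc5a at -3.27 and -3.36 to Ednrb at 4.10 and 4.05, and Agtr2, Tshr, Gprc5b and Oxtr lie below it.

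Between the genotypes on the same day, 1 receptor gene was called, Oxtr on day 28, against 0.228% of all genes. Oxtr was at 5.16, 5.34 and 5.23 in WT and at 4.63, 4.56 and 4.65 in KO on day 28, and at 4.54 to 4.72 in WT and 4.49 to 4.75 in KO on day 2. The WT arrays of day 28 were the highest of all 24, with values near the array medians elsewhere. The difference, KO minus WT, was -0.63 (SE 0.12, 95% interval -0.88 to -0.38, adjusted p 0.0296), and against day 2 Oxtr rose by 0.61 in WT (adjusted p 0.000442) while its change in KO was -0.04 (adjusted p 0.829). The call between genotypes was lost without any 1 of the 6 arrays of day 28 (adjusted p 0.0666 to 0.16), after quantile normalization (0.0529) and when only those 6 arrays were fitted (0.258). The difference of the day 28 changes was -0.65 (SE 0.17, adjusted p 0.632).

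On days 2, 5 and 10 no receptor gene was called between the genotypes by limma, against 0.00672%, 0.00672% and 0.0336% of all genes tested. At an unadjusted p under 0.05 there were 0, 1 and 5 receptor genes on those days, and 6 on day 28. As the mean over days none was called (6 at an unadjusted p under 0.05), against 0.188% of all genes. No share of all genes is given here for the unadjusted counts, so they are a description only. Agtr2 and Tshr came nearest. On day 10 Agtr2 differed by -2.04, KO minus WT (95% interval -2.96 to -1.12, adjusted p 0.0928) with no overlap of arrays, and on day 28 the difference was -1.33 (95% interval -2.25 to -0.41, adjusted p 0.507). It was called on day 10 without WT day 10 replicate 3 (-2.45, adjusted p 0.017) or without KO day 10 replicate 2 (-2.50, adjusted p 0.0129). As the mean over days the Agtr2 difference was -0.93 (adjusted p 0.0942), and the difference of its day 10 changes was -1.93 (adjusted p 0.999). Tshr differed by -1.53 on day 10 (95% interval -2.24 to -0.82, adjusted p 0.103) and by -1.36 on day 28 (95% interval -2.06 to -0.65, adjusted p 0.136), where it was called when only the day 28 arrays were fitted (0.0333).

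The Tshr result of day 10 turned on WT day 10 replicate 3. Without that array the difference was -2.17 (adjusted p 5.47e-06), the difference of the day 10 changes was -1.93 (adjusted p 0.00243), the F test over the 3 days gave an adjusted p of 0.000857, and the mean over days was -0.93 (adjusted p 1.49e-05). That array has the lowest adipocyte marker mean of its group, at 6.77, with Adipoq at 4.97 against 8.78 and 8.19 in the other replicates, and the lowest Agtr2 and Tshr values. Of the 10 adipocyte markers, 1 was called lower in KO on day 10 and 1 on day 28, and none was higher in KO by its fitted value on either day; the part of adipocytes in the differences of Agtr2 and Tshr was not tested. Calcrl (-0.89), Lpar4 (-0.58) and Gprc5b (-0.57) were also lower in KO on day 10 at an unadjusted p under 0.05 but had adjusted p of 0.608, 0.591 and 0.627.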

How the data were processed

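Each of 24 cultures was measured on 1 Affymetrix Mouse Gene 2.0 ST array, with 3 cultures in each of 8 groups of genotype and day. The deposited values are log2 expression values for which the submitters' processing notes name RMA and Affymetrix Expression Console; no version or genome build is given for them in the sources used here. The authors' deposited table held 41345 transcript clusters. Of these 23521 carried 1 gene symbol in the platform annotation, 1814 several and 16010 none, and 23328 of the single symbols were matched by gene ID. Where several clusters stood for a gene (1082 genes), that of highest mean was used, giving 22180 genes. Genes that reached the array median on at least 3 of 24 arrays were tested (14892). Array data hold no read depth; the number of arrays limits the precision. The labels call the replicates independent preparations.

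One limma model (limma 3.58.1, R 4.3.3) with a mean for each of the 8 groups gave the changes from day 2, the differences between genotypes and the differences of the changes, with moderated tests on 16 residual and 4 prior degrees of freedom and Benjamini-Hochberg adjustment over all genes tested; adjusted p under 0.05 is called. The script was tested on simulated data. The receptor list, the pathway and marker lists and the tests were chosen with earlier results of these data known. Any listed receptor may be named, with up to 5 called genes of each pathway list that changed most on day 28, up to 3 markers of each cell type, and Arrb1 and Arrb2; others are said to be chosen after their values were seen. Same-numbered cultures were taken as paired where their deviations from the group means correlated above 0.1 in every pair: this held for WT day 5, KO days 5, 10 and 28 against day 2, day 10 against day 5 in both genotypes and day 28 against day 10 in KO, but not for WT days 10 and 28 (lowest correlation 0.083 and 0.047) or between genotypes. Promoters came from a RefSeq table on GRCm38.p6. Alternatives were no filter, a stricter filter (12 arrays), median centring, quantile normalization, the mean of a gene's clusters, trended robust moderation, only the groups compared, replicate blocks, and each array left out.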

Additional observations from a re-analysis of the deposited data

How the results depend on the processing

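No receptor gene's call changed direction under any alternative run. Of 94 calls of receptor genes, 12 were lost and 0 gained without the filter on dim genes (22180 genes tested), 2 were lost after centring, 7 lost and 9 gained after quantile normalization, and 21 lost and 14 gained when only the groups compared were fitted; the mean of clusters changed none, a stricter filter changed none of the 89 calls among the 27 receptor genes it kept, and trended robust moderation gained 1. The replicate block lost 1 of 93 and gained 21, and a random block (consensus correlation 0.158) gained 14. Counts that moved by over 1.5 times were WT day 5 (3), with 5 under either block; KO day 5 (2), with 1 without the filter, 1 after quantile normalization and 0 with only the groups compared; KO against WT on day 28 (1), with 0 after quantile normalization; WT day 28 against day 10 (1), with 2 under the replicate block and 2 with only the groups compared; KO day 10 against day 5 (5), with 2 with only the groups compared; and KO day 28 against day 10 (4), with 1 without the filter and 0 with only the groups compared. The cause of these moves was not tested. With each array left out, counts ran from 1 to 4 (WT day 5), 13 to 16 (WT day 10), 18 to 20 (WT day 28), 1 to 4 (KO day 5), 6 to 8 (KO day 10), 17 to 19 (KO day 28), 6 to 13 and 1 to 2 (WT intervals), and 2 to 7 and 0 to 4 (KO intervals). Between genotypes they ran from 0 to 2 on day 10 and for the mean over days, from 0 to 1 for the difference of the day 10 changes and the F test, and stayed at 0 on day 28 and elsewhere. In the WT comparisons under the pairing limit of 0.1, the block called Avpr1a and P2ry6 on day 10 and Htr2a, Avpr1a and Lpar3 on day 28. There it also called Ednrb from day 10 to 28, and the block changed no other call beyond those given above. Falling under that limit does not show that the cultures were unpaired, as Xist was low on WT replicate 2 on each day. The fit of only the groups compared could not be made for the mean over days or the F test, nor the block between genotypes, whose numbers mark different cultures. Genes near the array median, such as Oxtr, P2ry1 and Lpar3, lie where signal over background limits what can be seen, and 3 arrays a group leave calls that single arrays decide.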
